A study of Mus musculus with 6 samples.

Results

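The inward rectifier potassium channel (Kir) family is encoded by the Kcnj genes. Of these, 10 genes, Kcnj2, Kcnj3, Kcnj5, Kcnj8, Kcnj10, Kcnj11, Kcnj12, Kcnj14, Kcnj15 and Kcnj16, are described here in ectopic endometrial lesions of mice with and without conditional deletion of Dnmt3a, the gene of a de novo DNA methyltransferase. They were taken from the deposited gene counts by symbol, as 10 of the 15 Kcnj genes in a table of 56884 gene identifiers. The question was whether the lower Kcnj2 level of the Dnmt3a-deleted lesions was shared by the rest of the family. The list was chosen by the difference of Kcnj2 between these same lesions, a measured value, so every Kcnj value below, calls included, is a description and no Kcnj gene is given a p-value.

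A Kir channel passes potassium into the cell more readily than out of it, and in many cell types it holds the resting membrane potential near the potassium equilibrium. The family falls into strong rectifiers (Kcnj2, Kcnj12 and Kcnj14), G protein-gated channels (Kcnj3 and Kcnj5), ATP-sensitive channels that assemble with sulfonylurea receptors (Kcnj8 and Kcnj11), and channels best known from glia and transporting epithelia (Kcnj10, Kcnj15 and Kcnj16). In the uterus, potassium channels as a class are known for setting the excitability of the muscle wall and for controlling vascular tone.

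The 6 libraries were bulk RNA-seq of whole lesions, 3 per group. Both groups carried floxed Dnmt3a alleles. The uterine fragments of the wild-type control group (WT) came from Dnmt3a f/f females, and those of the knockout group (KO) from Dnmt3a f/f:PR-Cre/+ females, in which Cre is driven by the progesterone receptor locus. The study's methods put donors and recipients at 8 weeks of age. Donors were injected with estradiol on 3 consecutive days before the fragments were taken. The recipients were wild-type C57BL/6J females carrying an estradiol pellet. Recombination is therefore limited to donor cells of the progesterone receptor lineage, whereas vessels, immune cells and any other tissue contributed by the recipient keep an intact Dnmt3a. The sources differ on the surgery: the methods describe a 2-mm fragment sutured to the mesenteric membrane and lesions collected on day 21, and the labels describe intraperitoneal injection of fragments and 4 weeks of growth. The methods give 3 donor mice and 3 lesions per group. In whole tissue, fewer cells of a type and less RNA per cell cannot be told apart.

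The libraries held 45370342 to 57239184 counts, and 18177 genes passed the filter on low counts. Dnmt3a was at 52.7, 43.9 and 51.7 CPM (counts scaled to the library total) in the WT lesions and at 30.3, 33.5 and 36.2 CPM in the KO lesions. The groups did not overlap, and the log2 fold change of KO against WT was -0.57 (SE 0.14), with an adjusted p of 0.321 in the quasi-likelihood test of edgeR after Benjamini-Hochberg adjustment (from 0.0438 in DESeq2 to 0.668 without KO replicate 2 over the alternatives run). An exact two-sided permutation test gave p = 0.1, the smallest that 3 lesions against 3 can give. The lesions differed in tissue content. The 10 skeletal muscle markers summed to 29339 and 30860 CPM in WT replicates 1 and 3, but to 5.65 CPM in WT replicate 2 and to 7.25 to 16.0 CPM in the KO lesions, in all of which the fast-fiber markers Myh1, Myh4 and Pvalb were at 0. The 8 neutrophil markers summed to 479, 9847 and 214 CPM in WT and to 82.5, 37.3 and 185 CPM in KO, and theirs was the 1 list of the 13 cell type lists whose summed level did not overlap between the groups. Of 7 neutrophil markers tested, 3 were lower at an unadjusted p under 0.05 with a log2 fold change below -1, against 5.85% of all tested genes, 0 passed the adjusted threshold in edgeR, and 0 were at 0 in every library. The 7 pancreatic acinar markers reached 5214 CPM in WT replicate 3 alone, against 7.23 to 16.2 CPM elsewhere. Endometrial tissue was present in all 6 lesions: Epcam, an epithelial adhesion molecule, ranged from 240 to 412 CPM in WT and from 211 to 468 CPM in KO, and Pgr, the progesterone receptor, was at 137, 135 and 227 CPM in WT and at 255, 240 and 151 CPM in KO.

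Kcnj2 encodes the classical strong inward rectifier of heart, skeletal muscle and vascular cells. Its promoter, read from RefSeq on GRCm38.p6 as the 250 bases before the gene start, is shown because Dnmt3a methylates CpG dinucleotides, which are in capitals. The promoters of Kcnj16, which is the next Kcnj gene on the same chromosome and strand (first of 4 annotated starts), of Kcnj8 and of Kcnj15 are given for comparison. All 4 are written 5′ to 3′ on the strand of the gene.
Kcnj2, chr11:111065914-111066163 (+): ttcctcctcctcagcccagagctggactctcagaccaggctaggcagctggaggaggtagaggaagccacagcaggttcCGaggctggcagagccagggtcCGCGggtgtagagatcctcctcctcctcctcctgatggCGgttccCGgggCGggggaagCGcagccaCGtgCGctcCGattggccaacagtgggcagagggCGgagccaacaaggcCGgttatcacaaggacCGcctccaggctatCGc
Kcnj16, chr11:110967783-110968032 (+): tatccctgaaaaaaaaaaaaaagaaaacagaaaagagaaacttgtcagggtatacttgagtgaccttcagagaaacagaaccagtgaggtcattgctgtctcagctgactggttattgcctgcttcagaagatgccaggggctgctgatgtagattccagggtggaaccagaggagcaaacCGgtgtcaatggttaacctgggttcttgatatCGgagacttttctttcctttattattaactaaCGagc
Kcnj8, chr6:142571615-142571864 (-): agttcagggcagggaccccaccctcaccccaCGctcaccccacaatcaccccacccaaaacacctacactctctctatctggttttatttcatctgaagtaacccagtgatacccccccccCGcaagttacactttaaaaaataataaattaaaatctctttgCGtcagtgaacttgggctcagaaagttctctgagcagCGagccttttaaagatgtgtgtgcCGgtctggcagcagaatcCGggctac
Kcnj15, chr16:95257308-95257557 (+): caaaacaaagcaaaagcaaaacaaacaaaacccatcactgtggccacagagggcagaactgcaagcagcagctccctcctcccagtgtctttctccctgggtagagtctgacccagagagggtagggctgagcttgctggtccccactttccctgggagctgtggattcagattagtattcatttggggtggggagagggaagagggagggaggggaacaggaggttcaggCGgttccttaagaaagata
The Kcnj2 window held 14 CpG dinucleotides, and 29.4% of 32841 RefSeq promoter windows of the same length held at least as many. The Kcnj16, Kcnj8 and Kcnj15 windows held 3, 6 and 1, against a median of 6. Kcnj10 had more CpG than Kcnj2, with 17, and Kcnj3, Kcnj5 and Kcnj12 had 7, 7 and 4. RefSeq entries were matched for 8 of the 10 genes, and Kcnj11 and Kcnj14 had none in the table used. DNA methylation was not measured in these libraries, so the CpG content is a feature of the sequence only.

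The level of Kcnj2 was 40.2, 40.4 and 34.2 CPM in the WT lesions and 6.39, 6.56 and 7.33 CPM in the KO lesions. All 3 KO lesions were below all 3 WT lesions, and the lowest WT value was 4.66 times the highest KO value. The means were 38.3 ± 3.52 CPM in WT and 6.76 ± 0.506 CPM in KO (SD, n = 3), a 5.66-fold difference, and the log2 fold change was -2.50 (SE 0.15, 95% interval -2.86 to -2.14). These values rest on 1601 to 1882 counts per WT library and 330 to 364 counts per KO library. With any 1 lesion left out, the log2 fold change lay between -2.60 and -2.46.

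**Figure D1:**
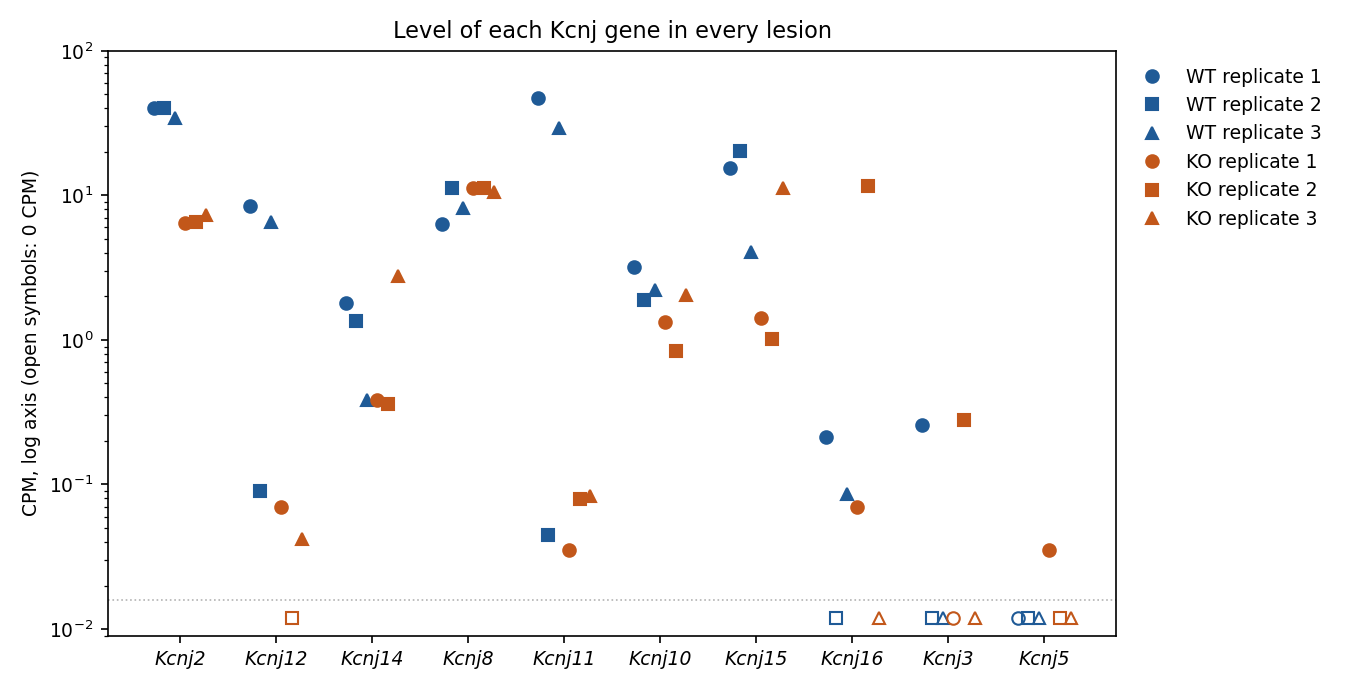
Level of each of the 10 Kcnj genes in each lesion, in CPM on a log axis, with WT lesions in blue, KO lesions in orange and values of 0 as open symbols. Kcnj2 sits at 34.2 to 40.4 CPM in WT and at 6.39 to 7.33 CPM in KO, whereas Kcnj11 and Kcnj12 are high in WT replicates 1 and 3 only.

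The level of Kcnj2 is given here beside the tissue content of the lesions. WT replicate 2, with skeletal muscle markers at 5.65 CPM, had 40.4 CPM of Kcnj2, which was 5.51 to 6.32 times the level in the KO lesions. WT replicates 1 and 3, with muscle markers at 29339 and 30860 CPM, had 40.2 and 34.2 CPM. With these 2 lesions left out, an alternative chosen after the data were seen that leaves a single WT lesion, the log2 fold change of Kcnj2 was -2.60 (SE 0.19).

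Summed macrophage, endothelial and stromal markers were lower in KO replicates 1 and 2 than in every WT lesion, as was Kcnj2. Macrophage markers summed to 766 and 550 CPM in these 2 lesions (WT 1175 to 2734), endothelial markers to 335 and 241 CPM (WT 526 to 639) and stromal markers to 2330 and 2244 CPM (WT 3101 to 3613). The stromal sum followed Dcn, Vim and Pdgfra, each lower in these 2 lesions than in every WT lesion. Esr1, Hoxa11 and Hand2 went the other way, higher in every KO lesion than in every WT lesion, as were 10.7% of all tested genes. Pgr and Hoxa10 overlapped between the groups. In KO replicate 3 the same lists summed to 1391, 679 and 3837 CPM, within or above the WT range, and Kcnj2 was 7.33 CPM. The neutrophil sum was lower in every KO lesion than in every WT lesion. It ranged from 214 to 9847 CPM among WT lesions whose Kcnj2 levels lay within 34.2 to 40.4 CPM. Taken singly, Csf3r, Cxcr2, Retnlg, Ly6g and Mmp8 overlapped between the groups. The part of these cell types in the Kcnj2 difference was not tested.

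**Figure D2:**
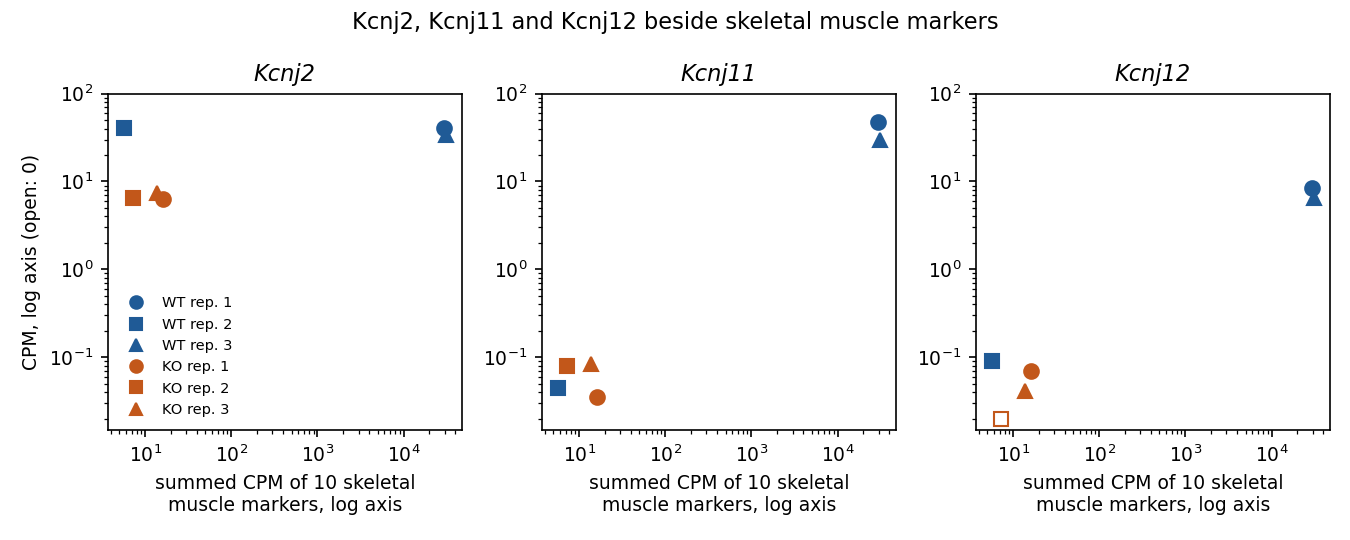
Level of Kcnj2, Kcnj11 and Kcnj12 in CPM against the summed level of 10 skeletal muscle markers, each point 1 lesion, on log axes with values of 0 as open symbols. Kcnj11 and Kcnj12 are high only in the 2 lesions with muscle markers at 29339 and 30860 CPM, and Kcnj2 is at 40.4 CPM in the WT lesion with 5.65 CPM of them.

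The other strong rectifiers varied more among the WT lesions. Kcnj12, which encodes the channel most closely related to Kcnj2, was at 8.45, 0.0900 and 6.49 CPM in WT and at 0.0702, 0 and 0.0417 CPM in KO. Its 2 high values were those of WT replicates 1 and 3, while WT replicate 2, with 4 counts, was level with KO replicate 1, which also had 4 counts. Kcnj14, a strong rectifier known mainly from neurons, was at 1.79, 1.35 and 0.384 CPM in WT and at 0.386, 0.358 and 2.75 CPM in KO. Its groups overlapped, and its highest lesion was a KO lesion. The log2 fold change of Kcnj14 was -0.02 with a 95% interval of -2.41 to 2.38, which reached close to the value of Kcnj2, so a difference of up to that size was not detectable in these lesions.

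The ATP-sensitive pair diverged from each other. Kcnj8, the pore of the vascular and smooth muscle ATP-sensitive channel, was at 6.32, 11.2 and 8.16 CPM in WT and at 11.2, 11.2 and 10.6 CPM in KO. WT replicate 2 was level with the KO lesions and the other WT lesions were below them. Its log2 fold change was 0.36 (SE 0.24), and the interval of -0.22 to 0.94 lay wholly above that of Kcnj2. With WT replicates 1 and 3 left out it was -0.05 (SE 0.21). Kcnj11, the pore of the ATP-sensitive channel of striated muscle and pancreatic beta cells, was at 46.9, 0.0450 and 29.4 CPM in WT and at 0.0351, 0.0795 and 0.0834 CPM in KO. WT replicate 2, with 2 counts, was within the KO range of 2 to 4 counts, and 2199 and 1376 counts came from the lesions with skeletal muscle markers. Kcnj11 and Kcnj12 did not pass the filter on low counts, which asked for enough reads in at least 3 libraries, and so had no fold change in the main comparison. Fitted without the filter, the log2 fold change was -8.57 (95% interval -13.5 to -3.62) for Kcnj11 and -6.96 (interval -11.0 to -2.87) for Kcnj12, both further below 0 than Kcnj2. DESeq2 gave -8.61 (SE 1.78) and -7.06 (SE 1.40). These sizes depend on how counts near 0 are handled, and they rest on WT replicates 1 and 3, since WT replicate 2 had 2 and 4 counts of the 2 genes. The part of skeletal muscle in them was not tested.

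The sulfonylurea receptors, regulatory partners of these 2 pores, were lower on average but did not pass an adjusted threshold. Abcc9, the partner usual in smooth and vascular muscle, was at 83.1, 35.5 and 84.4 CPM in WT and at 20.96, 22.8 and 39.0 CPM in KO. WT replicate 2 lay inside the KO range. Its log2 fold change was -1.29 (SE 0.41), with an adjusted p of 0.328 in the quasi-likelihood test of edgeR after Benjamini-Hochberg adjustment. Abcc8, the partner usual in beta cells and neurons, was at 1.32, 0.203 and 0.491 CPM in WT and at 0.0702, 0.318 and 0.0834 CPM in KO, with a log2 fold change of -2.09 (SE 0.91) and an adjusted p of 0.351 in the same test.

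Among the channels of glia and transporting epithelia, Kcnj10, the main glial Kir channel, was at 3.20, 1.89 and 2.20 CPM in WT and at 1.33, 0.834 and 2.04 CPM in KO. KO replicate 3 lay inside the WT range. The log2 fold change was -0.79 (SE 0.42, interval -1.82 to 0.24), which stopped short of the value of Kcnj2. Kcnj15, an epithelial channel, was at 15.5, 20.3 and 4.04 CPM in WT and at 1.42, 1.01 and 11.2 CPM in KO. KO replicates 1 and 2 were below every WT lesion, but KO replicate 3 was above WT replicate 3. Its log2 fold change was -1.55 (SE 1.07) with an interval of -4.17 to 1.07, wide enough to hold both the value of Kcnj2 and 0. Leaving out KO replicate 3 moved it to -3.44, the lowest of the values with 1 lesion left out. Antisense transcripts overlap Kcnj15 in the annotation used for names, and whether counting used the strand is not given in the sources used here.

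Kcnj16 forms channels mainly together with Kcnj10 or Kcnj15. It was near 0 in 5 lesions, at 0.213, 0 and 0.0854 CPM in WT and at 0.0702 and 0 CPM in KO replicates 1 and 3. In KO replicate 2 it was 11.6 CPM, from 585 counts. The value in that 1 lesion was the highest Kcnj16 level of the series, and the lesion had 6.56 CPM of Kcnj2, between those of the other KO lesions. The G protein-gated channels were hardly counted: Kcnj3 had 12 counts in WT replicate 1, 14 in KO replicate 2 and 0 in the other 4 libraries, and Kcnj5 had 2 counts in KO replicate 1 and 0 elsewhere. The 5 Kcnj genes outside the list, Kcnj1, Kcnj4, Kcnj6, Kcnj9 and Kcnj13, had at most 4 counts in any library.

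In all, 5 of the 10 Kcnj genes passed the filter (Kcnj2, Kcnj8, Kcnj10, Kcnj14 and Kcnj15). At an unadjusted p under 0.05 with a log2 fold change below -1, 1 of the 5 was called lower, which was Kcnj2, against 5.85% of all tested genes. In the higher direction 0 were called, against 3.1%. At an adjusted p under 0.05, edgeR called 1 of the 5 lower, again Kcnj2, against 0.0055% of all tested genes, which is 1 gene of 18177. It called 0 genes higher, where 1190 were higher at an unadjusted p under 0.05 of any fold. DESeq2, run without this filter, called 3 of the 10 lower, namely Kcnj2, Kcnj11 and Kcnj12, against 3.9% of the genes it tested, and 0 higher, against 1.56%. Limma voom called 1 of the 5 lower, against 0.066%, and 0 higher. Groups that did not overlap with KO below WT were found for 1 of the 5, against 8.74% of all tested genes (19.4% in either direction). Kcnj12, which did not pass the filter, was also apart in CPM, but on 4 counts in WT replicate 2 and 4 in KO replicate 1. Since the contrast chose Kcnj2, nothing is read from these counts. The single call at the adjusted threshold was lost when any 1 lesion other than WT replicate 2 was left out, and without WT replicate 2 the number of genes called lower was 396.

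A ratio within each lesion removes the scaling of the library. The log2 ratio of Kcnj2 to Kcnj8 was 2.67, 1.85 and 2.07 in WT and -0.81, -0.77 and -0.53 in KO, so that Kcnj2 exceeded Kcnj8 in every WT lesion and was below it in every KO lesion on the CPM scale. The ratio to Kcnj10 was 3.65, 4.42 and 3.96 in WT and 2.26, 2.97 and 1.84 in KO. The ratio to Kcnj14 was 4.49, 4.90 and 6.47 in WT and 4.05, 4.20 and 1.42 in KO. For these 3 genes the groups of ratios did not overlap. Against Kcnj15 the ratio was 1.37, 0.99 and 3.08 in WT and 2.17, 2.69 and -0.61 in KO, and the groups overlapped.

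To set levels of different genes side by side, CPM was divided by the exon length of each gene in kilobases (CPM per kb). In WT, Kcnj2 was first, at 7.38, 7.42 and 6.28 CPM per kb. Kcnj11 was the second by its mean but ranged from 0.01 to 12.8 CPM per kb, so its place was not separated from that of Kcnj2. Kcnj8 followed at 2.48, 4.38 and 3.20 CPM per kb, below Kcnj2 in every WT lesion and overlapping with Kcnj15 at 2.46, 3.22 and 0.64 CPM per kb. In KO, Kcnj8 was first, at 4.39, 4.38 and 4.15 CPM per kb, above Kcnj2 at 1.17, 1.20 and 1.35 CPM per kb in every lesion. Kcnj2 was in turn not separated from the genes behind it, since Kcnj16 reached 2.95 CPM per kb in KO replicate 2 and Kcnj15 reached 1.77 CPM per kb in KO replicate 3.

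Kcnj2 made up 25.0%, 46.6% and 29.7% of the summed per-length level of all 15 Kcnj genes in WT and 18.7%, 13.3% and 15.4% in KO. With Kcnj11 and Kcnj12 left out of the sum, its share was 53.8%, 46.8% and 58.3% in WT and 18.8%, 13.3% and 15.5% in KO. The share of Kcnj8 in the whole sum was 8.39%, 27.5% and 15.2% in WT and 69.8%, 48.2% and 47.5% in KO. The remaining 12 genes, without Kcnj2, Kcnj11 and Kcnj12, summed to 6.33, 8.44 and 4.48 CPM per kb in WT and to 5.08, 7.86 and 7.35 CPM per kb in KO. Those sums overlapped between the groups. With Kcnj2 added back they were 13.7, 15.9 and 10.8 CPM per kb in WT and 6.25, 9.07 and 8.70 CPM per kb in KO, and did not overlap.

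**Figure D3:**
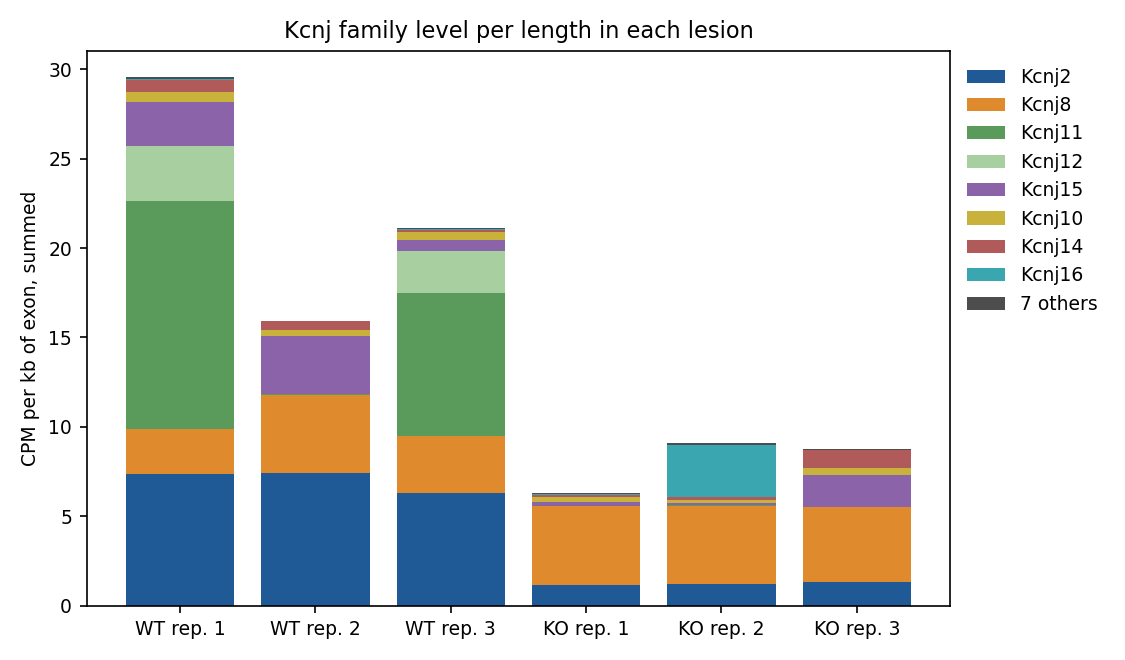
Summed level of the 15 Kcnj genes in each lesion, in CPM per kilobase of exon, stacked by gene. Kcnj2 gives 6.28 to 7.42 CPM per kb in the WT lesions and 1.17 to 1.35 in the KO lesions, and Kcnj8 is the tallest segment in all 3 KO lesions.

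The other potassium channel genes were counted by class. Of 77 pore-forming and accessory genes outside the Kcnj family, 50 passed the filter, and at an unadjusted p under 0.05 with a log2 fold change past 1 there were 5 lower and 12 higher in KO. Together these were 34% of the 50, against 8.96% of all tested genes. Their median log2 fold change was 0.33, against 0.01 over all tested genes, and 20 of the 50 were below 0. No gene of the 50 passed an adjusted p of 0.05 in edgeR. At an unadjusted p under 0.05 of any fold, 7 were lower and 15 higher. Over all 18177 tested genes these counts were 1484 and 1190. Over all 77, DESeq2 called 4 lower and 11 higher at the adjusted threshold, against 3.9% and 1.56% of the genes it tested. Limma voom called 0. Classes are counted by the same rule of unadjusted p and fold, at which 5.85% of all tested genes were lower and 3.1% higher. The two-pore channels, which carry background potassium current, had 7 tested, with 0 lower and 3 higher and a median of 1.36. The voltage-gated channels had 27 tested, with 5 lower and 5 higher and a median of 0.16. The calcium- or sodium-activated channels had 7 tested with 0 lower and 1 higher, and the accessory subunits 9 tested with 0 lower and 3 higher.

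Of the 5 lower genes, all voltage-gated, 4 had WT replicate 2 below the highest KO lesion, as Kcnj11 did. Kcna7, known from skeletal muscle, was at 21.3, 0.225 and 18.4 CPM in WT, and Kcnq5 was at 27.5, 1.44 and 22.2 CPM in WT. The exception was Kcng4, a modulatory subunit that is silent alone, at 1.81, 1.71 and 3.63 CPM in WT and at 0.246, 0.358 and 0.375 CPM in KO. Its log2 fold change was -2.86 (SE 0.44), at a level far below that of Kcnj2.

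Channel genes that were higher in KO, with no overlap between the groups, included Kcnf1, another silent modulatory subunit, at 2.86, 0.990 and 2.86 CPM in WT and at 13.7, 27.7 and 9.34 CPM in KO. Kcnmb1, the accessory subunit of the large-conductance calcium-activated channel of smooth muscle, was at 8.71, 7.38 and 14.8 CPM in WT and at 31.5, 35.9 and 26.2 CPM in KO. Of the 8 smooth muscle markers, 5 were higher in every KO lesion than in every WT lesion, against 10.7% of all tested genes. These were Myh11, Cnn1, Actg2, Lmod1 and Smtn, with log2 fold changes of 0.76 to 1.37. The sum of all 8 overlapped between the groups, at 1119 to 4957 CPM in WT and 2303 to 4041 CPM in KO. It included Des, which skeletal muscle also expresses and which was at 2675 and 1357 CPM in WT replicates 1 and 3. Without Des the WT lesions summed to 2282, 1013 and 1702 CPM, and the KO lesions to 3670, 2108 and 2930 CPM, which still overlapped. The part of smooth muscle content in the Kcnmb1 difference was not tested. Kcnq1, a channel of heart and transporting epithelia, was at 11.4, 5.49 and 12.2 CPM in WT and at 37.3, 35.6 and 13.9 CPM in KO. Kcnk5, an acid-sensitive two-pore channel of epithelia, was at 16.7, 9.50 and 7.86 CPM in WT and at 25.0, 52.4 and 17.8 CPM in KO, and Kcnip4, an accessory subunit of voltage-gated channels, was at 0.384, 0.630 and 0.897 CPM in WT and at 3.96, 1.87 and 2.21 CPM in KO. The log2 fold changes of these 5 genes ran from 1.48 for Kcnk5 to 2.91 for Kcnf1, and their adjusted p-values from 0.321 to 0.328 in the quasi-likelihood test of edgeR after Benjamini-Hochberg adjustment.

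**Figure D4:**
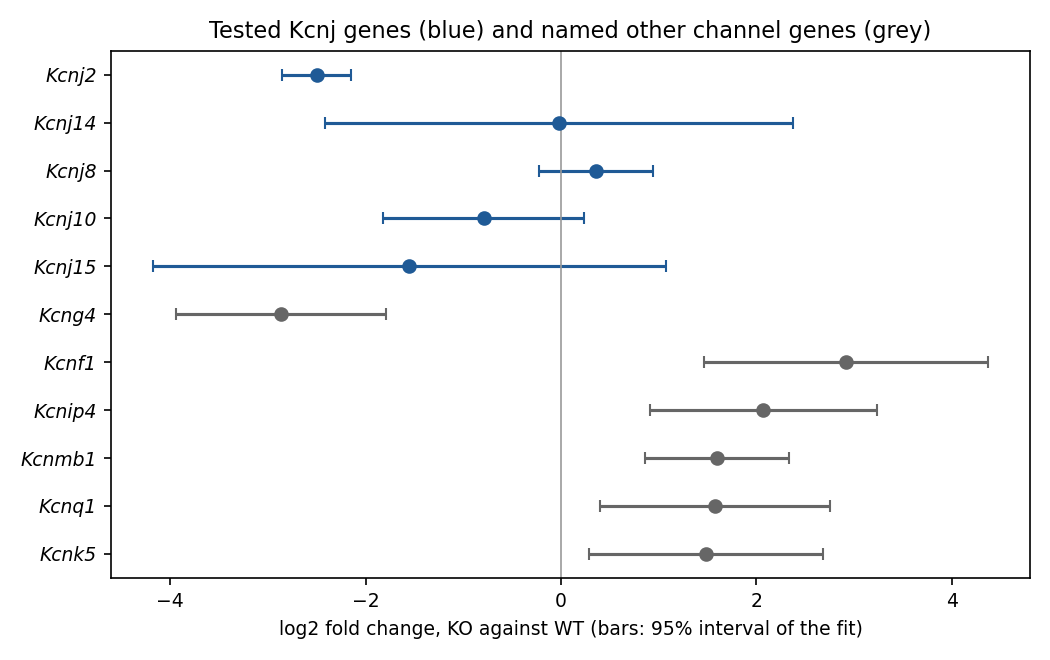
Log2 fold change of KO against WT for the 5 Kcnj genes that passed the filter (blue) and for 6 named channel genes of other classes (grey), each with its 95% interval from the fit across all genes. The interval of Kcnj2 is -2.86 to -2.14, a description only, because Kcnj2 was chosen for this difference. Those of the other 4 Kcnj genes include 0, and Kcng4 lies at -2.86 while Kcnf1 lies at 2.91.

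Proteins that anchor or traffic strong Kir channels, and the sodium pump that maintains the potassium gradient, were also counted. Of 16 scaffold and trafficking genes tested, 1 was lower (Cav3, muscle caveolin) and 1 was higher (Lin7b), against 5.85% lower and 3.1% higher over all tested genes, with a median of -0.11. Cav3 was at 33.3, 0.495 and 22.6 CPM in WT, the pattern of the skeletal muscle markers. Lin7b rested on low counts, 8, 4 and 6 in WT and 29, 14 and 16 in KO. Of 6 sodium pump subunits tested, 1 was lower against the same 5.85%, Atp1b2, at 59.8, 12.6 and 80.1 CPM in WT and at 13.9, 14.0 and 15.4 CPM in KO, again with WT replicate 2 low. At the adjusted threshold edgeR called 0 in either list. At an unadjusted p under 0.05 of any fold, 1 scaffold gene was lower and 2 higher, and 1 pump gene was lower. Over all 18177 tested genes, 1484 were lower and 1190 higher by that rule. DESeq2 called 1 scaffold gene, in the lower direction, against 3.9% of the genes it tested, and 0 pump genes. Limma voom called 0.

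The genes next to Kcnj2 on chromosome 11 are given with their values. Of 12 other genes starting within 1 Mb of it, 6 passed the filter, and 0 were called in either direction at an unadjusted p under 0.05, with or without the fold limit, or at the adjusted threshold in edgeR, DESeq2 or limma voom. Over all tested genes 8.96% were called at the unadjusted rule, so a count of 0 among 6 genes is near the background. Their median log2 fold change was -0.03. The lowest was Abca8a, a lipid transporter gene at -970 kb from the Kcnj2 start, at 12.9, 12.7 and 17.4 CPM in WT and at 3.33, 5.48 and 12.4 CPM in KO, with a log2 fold change of -1.02 (SE 0.49, 95% interval -2.22 to 0.18). Its groups did not overlap, as for 8.74% of all tested genes in that direction. The related Abca9, Abca6 and Abca5 were at -0.23, -0.04 and -0.02, the kinase gene Map2k6 was at 1.41 (SE 0.61) and Gm11675, 210 kb after the Kcnj2 start, was at 0.58. Kcnj16 starts at -98.1 kb from Kcnj2 and did not pass the filter.

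**Figure D5:**
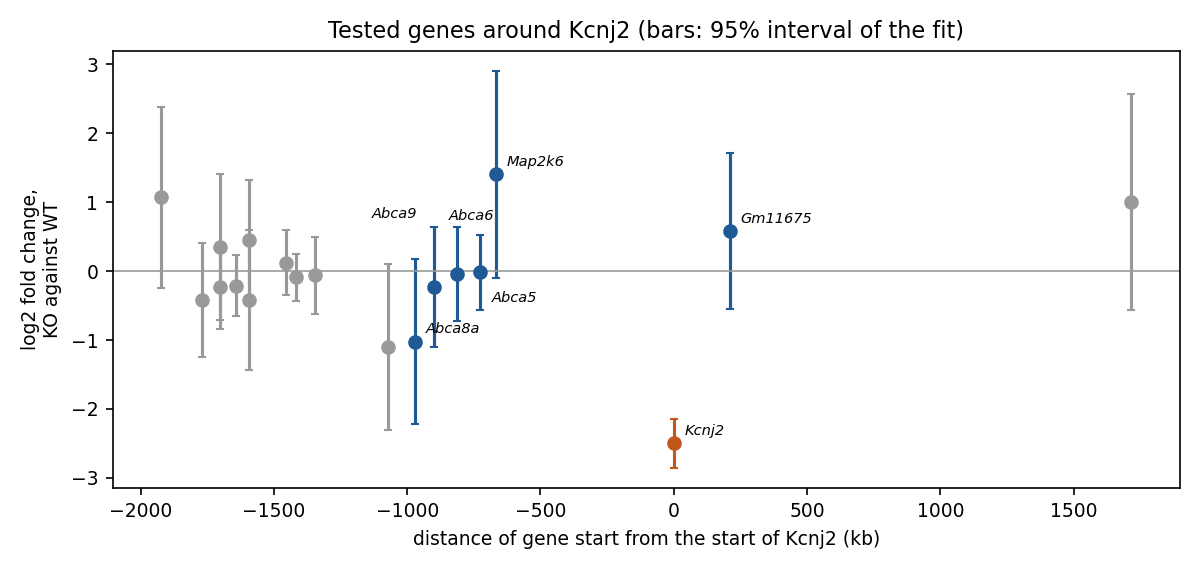
Log2 fold change of KO against WT, with its 95% interval, for tested genes around Kcnj2 by distance of their start from that of Kcnj2 in kilobases, with grey points for genes past 1 Mb and up to 2 Mb away. Kcnj2 lies at -2.50, and the 6 tested neighbours within 1 Mb, in blue, lie between -1.02 and 1.41.

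The genes whose level was most like that of Kcnj2 over the 6 lesions, by Pearson's r of log2 CPM among 15045 genes, were Rc3h2 (0.996), Hk2 (0.995), Fam162a (0.991), Dennd4b (0.989) and Ceacam19 (0.988). Hk2, a hexokinase of glycolysis, was at 154, 133 and 138 CPM in WT and at 53.7, 54.5 and 56.2 CPM in KO. The genes most opposite to it were Pigq (-0.997), Tfcp2 (-0.990) and Gm10254 (-0.990). With 6 lesions that share 2 groups, r above 0.95 was reached by 59 genes and r below -0.95 by 70, and the order among them is descriptive. By rank correlation 79 genes were tied at 1.0, and 0 of the 5 named genes were among them.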

How the data were processed

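Whole-lesion RNA was made into stranded mRNA libraries (TruSeq). The authors deposited raw counts per gene for each of the 6 libraries, with gene identifiers and no symbols. The methods name GRCm38 and Galaxy, whereas the submitters' processing notes list GRCm39, Trimmomatic, featureCounts and DESeq2 without roles. The aligner and annotation release are not given in the sources used here. Of 56884 identifiers, 51948 were found without version in GENCODE M21, which gave symbols, exon lengths and neighbours. Identifiers without a symbol held 3.04% to 3.56% of counts and stayed in the fit.

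Counts were fitted with edgeR 4.0.16 (quasi-likelihood test, filterByExpr, TMM scaling, Benjamini-Hochberg adjustment over 18177 genes) in R 4.3.3, with group as the only term. CPM values use TMM-scaled totals. DESeq2 1.42.0, limma 3.58.1 (voom with quality weights), other scalings and filters, a replicate block and leaving out each lesion were the alternatives. Leaving out both WT lesions with skeletal muscle markers was added after the data were seen, with the lone WT lesion assumed to vary like the KO lesions. Halving the counts was also added then, because 89.2% to 90.6% of counts from 1 to 20 were even, so that a count of 2 may stand for 1 read pair. The fit was tested on simulated counts. Each interval covers the spread between lesions.

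The Kcnj genes, the other gene lists, the marker lists and the tests were chosen with earlier results of these data known. Channel genes were named if they had an unadjusted p under 0.05, a log2 fold change past 1, a mean of at least 1 CPM and no overlap between groups, at most 5 per direction. All tested genes within 1 Mb of Kcnj2 were named, as were the 5 genes most like Kcnj2 and the 3 most opposite to it. Kcna7, Kcnq5, Cav3, Lin7b, Atp1b2 and the genes set beside Kcnj16 were named after their values were seen. Of the 13 marker lists, those for pericytes, glia, adipocytes, mesothelium and erythroid cells had summed levels that overlapped between the groups.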

Additional observations from a re-analysis of the deposited data

How the results depend on the processing

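The direction of Kcnj2 was the same in all 15 alternatives, from -2.60 to -2.46 on the log2 scale with 1 lesion left out and from -2.60 to -2.41 otherwise. Kcnj10 and Kcnj15 stayed below 0, Kcnj8 was above 0 (0.18 to 0.60) except at -0.05 with both muscle-containing WT lesions left out, and Kcnj14 was below 0 in 10 of 15. Dnmt3a was at -0.58 and past the adjusted threshold in DESeq2, and between -0.65 and -0.50 with 1 lesion left out. Counts over all genes moved most. Lower at the adjusted threshold (1 gene) became 0 with DESeq2 size factors or upper quartile scaling or with both muscle-containing lesions left out, 773 with the DESeq2 test, 12 with limma voom and 0 to 396 with 1 lesion left out, and higher (0) became 310 with the DESeq2 test and 0 to 2. At the unadjusted rule, lower (1064) became 1652 without the filter 1839 with DESeq2 and 1625 with both muscle-containing lesions left out, and 551 (without KO replicate 1) to 1650 (without KO replicate 3), and higher (564) became 855 with voom and 280 to 1021. The other channel genes gave 9 lower with voom, 4 to 10 lower and 7 to 13 higher with 1 lesion left out. Around Kcnj2, 1 gene was lower with voom and 1 higher without the filter, with DESeq2 or with voom, and with 1 lesion left out there were 0 to 1 lower and 0 to 2 higher. With a replicate block the counts were 0 lower at the adjusted threshold, 573 lower and 372 higher at the unadjusted rule, 1 lower channel gene and 1 lower neighbour, but the replicate numbers did not pair the lesions, whose same-number correlations were 0.03, -0.15 and -0.20. By rank correlation, 0 of the 5 genes most like Kcnj2 kept their place. The cause of these moves was not tested. DESeq2, with adjusted values for 19813 genes, also called Kcnj11 and Kcnj12 lower, which the filter had left out. With 3 lesions per group, lowly counted members such as Kcnj14 allow only wide intervals.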

Other observations

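The single lesion with Kcnj16, KO replicate 2, also stood apart in genes of other kinds. Ovgp1, the oviduct-specific glycoprotein, was at 4104 CPM there and at 2.61 to 50.5 CPM in the other 5 lesions. Foxj1, the master regulator of motile cilia, was at 66.8 CPM there and at 10.5 CPM in KO replicates 1 and 3. In WT it was at 0.180 to 2.56 CPM, so its groups did not overlap, as for 10.7% of all tested genes in that direction. Dnah5, an axonemal dynein of such cilia, was at 64.6 CPM in KO replicate 2 against 0 to 0.458 CPM elsewhere. In total 277 genes with at least 1 CPM in that lesion were at least 10-fold above every other lesion. These genes were chosen after their values were seen, and their relation to Kcnj16 was not tested.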
